A study of Mus musculus with 8 samples.

Results

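Neurons find their partners and hold on to them through proteins on their surface, and 59 genes for such adhesion and axon guidance proteins were followed in the cortex of WT mice and of mice without SHARP1 and SHARP2 (S1/2-/-). The members were all genes of the array whose symbol places them among the cadherins (without the endothelial *Cdh5*), protocadherins, contactins, semaphorins, plexins, Eph receptors and ephrins, together with *Chl1*, *L1cam*, *Ncam1* and *Nrcam*. They are 59 of the 8251 genes with a probe set of 1 symbol, and 45 of them had a mean signal high enough to be tested. The rule that chose them uses symbols and not expression levels, but it was set with earlier results of these data known. No neurexin or neuroligin had a probe set with a single symbol, and 8 probe sets of the protocadherin alpha cluster, which carry several symbols, were left out.

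Cadherins bind cadherins on the neighbouring cell and are tied to actin by catenins, while contactins and the L1 and NCAM molecules are immunoglobulin adhesion proteins of axons and synapses. Ephrins on one cell activate Eph receptors on another, and semaphorins act on plexins, often with a neuropilin as co-receptor, and both systems steer growth cones in development and shape dendritic spines in the adult. SHARP1 and SHARP2, encoded by *Bhlhe41* and *Bhlhe40*, are repressors of the basic helix-loop-helix class that bind E-box sequences and belong to the clock of the cell.

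Each of 8 mice gave 1 Affymetrix array. The 4 groups of 2 mice were WT at ZT4, WT at ZT16, S1/2-/- at ZT4 and S1/2-/- at ZT16, where ZT counts hours from light onset, so that ZT4 lies in the light and ZT16 in the dark. All mice were 4 months old, of the strain C57/bl6 per the labels, and untreated, and the methods describe males from double heterozygous parents whose lines had been backcrossed to C57Bl/6J. S1/2-/- mice carry null alleles of both genes. *Bhlhe40* gave 983 to 1285 in WT and 834 to 1043 in S1/2-/- mice, but where its probe set lies relative to the deletion is not given, so that this is no check of the genotype. The signal is the MAS5 value of a probe set, which pools all cells of a cortical slab, so that fewer cells of a type and less RNA per cell cannot be told apart. Signals of different probe sets are not comparable with each other.

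The arrays had medians of 186 to 206, and the replicates of a group correlated at 0.936 to 0.940 (log2, all probe sets). Cortical projection neuron markers were present on all arrays, with summed signals from 7904 in WT ZT16 replicate 2 to 11794 (6 of the 10 listed genes were on the array). Markers of neighbouring tissue differed between the groups. The sum of 4 striatal markers was 3754 to 4308 in WT at ZT4, 9900.3 to 14295 in WT at ZT16, 8869 to 13421 in S1/2-/- at ZT4 and 6874 to 11558 in S1/2-/- at ZT16. The choroid plexus sum, which *Ttr* dominated, was 3107 and 3504 in WT at ZT16 and 246 to 1939 on the other 6 arrays. Oligodendrocyte markers summed to 16854 to 22904 in the 4 WT mice and to 26041 to 29580 in the 4 S1/2-/- mice. The part of these differences in the results below was not tested.

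The sequences before the annotated start are shown for 3 members described below and for *Epha8*, whose stretch holds the E-box letters CACGTG that repressors of this class bind. They come from RefSeq promoter windows (GRCm38.p6, 5′ to 3′ on the strand of the gene), reduced to the bases outside the annotated gene, and were chosen after the values were seen. Capitals mark CACGTG, which reads the same on both strands. *Epha7*, an Eph receptor with a lower signal at ZT16 than at ZT4 in WT, lies on the + strand at chr4:28812881-28813065. *Cntn1*, a contactin with its lowest signal in WT at ZT16, lies on the + strand at chr15:92050915-92051151. *Efna3*, an ephrin whose signals separate by genotype, lies on the - strand at chr3:89322940-89323189. *Epha8* lies on the - strand at chr4:136956860-136957066.
Epha7: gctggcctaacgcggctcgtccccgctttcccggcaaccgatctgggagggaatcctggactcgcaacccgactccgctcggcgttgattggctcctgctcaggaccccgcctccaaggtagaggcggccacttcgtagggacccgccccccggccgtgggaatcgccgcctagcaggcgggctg
Cntn1: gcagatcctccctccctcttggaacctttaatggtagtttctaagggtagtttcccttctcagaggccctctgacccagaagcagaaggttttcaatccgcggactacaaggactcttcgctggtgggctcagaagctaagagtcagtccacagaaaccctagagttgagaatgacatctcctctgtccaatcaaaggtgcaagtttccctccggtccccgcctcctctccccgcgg
Efna3: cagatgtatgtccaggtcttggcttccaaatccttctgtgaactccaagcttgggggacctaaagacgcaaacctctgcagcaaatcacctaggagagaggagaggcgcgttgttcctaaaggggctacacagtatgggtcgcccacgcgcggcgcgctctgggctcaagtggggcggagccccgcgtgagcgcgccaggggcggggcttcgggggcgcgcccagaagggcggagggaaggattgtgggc
Epha8: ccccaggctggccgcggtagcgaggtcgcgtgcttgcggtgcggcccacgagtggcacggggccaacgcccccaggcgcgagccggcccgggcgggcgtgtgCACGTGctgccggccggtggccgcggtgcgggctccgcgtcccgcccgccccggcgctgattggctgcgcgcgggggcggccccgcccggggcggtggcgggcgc

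Within windows of 300 bases, CACGTG occurred at 5 of the 45 members found in the promoter table (11.1%), of which 35 were past the filter on low signals, and at 2187 of all 27025 genes (8.09%). The 5 were *Cdh15*, *Epha8*, *Sema3e*, *Sema4b* and *Sema6d*, and *Cdh15* was below the filter. Averaged over both times, the log2 difference between S1/2-/- and WT was 0.13 for *Epha8*, 0.57 for *Sema3e*, 0.16 for *Sema4b* and 0.064 for *Sema6d*, and none passed the test (adjusted p = 0.480 to 0.945 from limma). The stretches of *Epha7*, *Cntn1* and *Efna3* do not contain these letters, which says nothing of other sites.

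Every array entered one fit, and a call required more than a 1.5-fold difference together with an adjusted p under 0.05 over all 7453 probe sets. Of the 45 members, 1 was called, in 1 of 7 comparisons (2.22% of the members there, against 0.255% of all probe sets). This was *Cdh13*, which encodes T-cadherin, a cadherin held in the membrane by a lipid anchor, and which rose in S1/2-/- cortex.

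*Cdh13* gave signals of 486 and 516 in WT at ZT4 and of 568 and 494 in WT at ZT16. In S1/2-/- cortex it gave 832 and 930 at ZT4 and 784 and 729 at ZT16. All 4 S1/2-/- mice lay above all 4 WT mice, at both times of day. Averaged over both times, the signal was 1.58-fold higher in S1/2-/- (log2 difference 0.66, standard error 0.11, 95% interval 0.43 to 0.90, adjusted p = 0.0368 from limma). The difference was 0.81 at ZT4 (adjusted p = 0.104) and 0.51 at ZT16 (adjusted p = 0.318), neither of which passed, and the test of the difference between these did not pass either (log2 -0.30, adjusted p = 0.912 from limma). The size of the difference stayed between 0.60 and 0.71 under all alternatives, but the call was lost in 12 of them (adjusted p of 0.0181 to 0.222 over all), among them no filter on low signals (0.0673), median centring (0.0607), no intensity trend (0.184), the ANOVA of the methods (0.222) and 7 of 8 fits that left out 1 array (0.0853 to 0.199). All 7 oligodendrocyte markers tested had a higher signal in S1/2-/- cortex, by a median of 0.68. The same held for 5 of 6 astrocyte markers (median 0.43) and 5 of 6 projection neuron markers (median 0.25). So it did for 3 of 3 striatal markers (0.51), 2 of 2 of hypothalamus (0.36) and 1 of 1 of hippocampus (0.28). Markers of microglia (5 of 6, 0.20), endothelium (5 of 5, 0.13) and interneurons (5 of 7, 0.044) were also mostly higher. Fewer were higher for thalamus (1 of 3), meninges (2 of 5) and choroid plexus (0 of 1). The part of all these markers in the *Cdh13* signal was not tested.

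**Figure D1:**
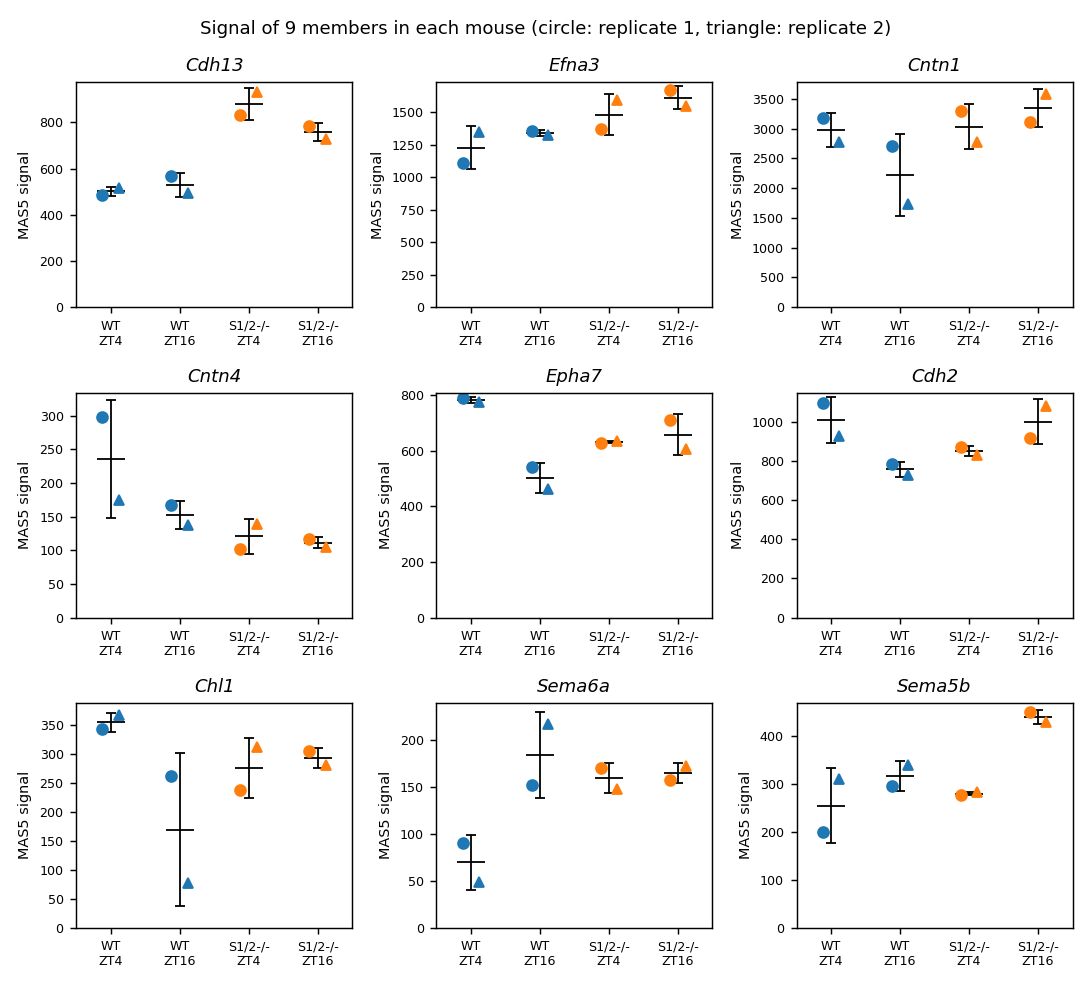
MAS5 signal (linear, from 0) of 9 members in each mouse, by genotype and time, with circles for replicate 1 and triangles for replicate 2, and with the group mean (line) and SD (bars) of 2 mice. The 4 S1/2-/- points of *Cdh13* (729 to 930) lie above the 4 WT points (486 to 568), and *Chl1* is at 76.7 in a single WT mouse at ZT16.

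The other cadherins did not pass the test in any comparison. *Cdh2*, or N-cadherin, which joins the membranes on the sides of a synapse, gave signals of 1096 and 928 in WT at ZT4 and of 785 and 731 in WT at ZT16. In S1/2-/- cortex the signals were 872 and 834 at ZT4 and 921 and 1083 at ZT16. The times did not overlap in either genotype, and they ran in opposite directions. The log2 change from ZT4 to ZT16 was -0.41 in WT (standard error 0.15, adjusted p = 0.625 from limma) and 0.23 in S1/2-/- (adjusted p = 0.764). *Cdh6* signals were 232 to 248 in WT at ZT4 against 184 to 194 at ZT16, and 224 to 235 in S1/2-/- at ZT4 against 154 to 182 at ZT16. It was one of 2 members, with *Nrcam*, whose 4 arrays at ZT16 all lay below the 4 arrays at ZT4, a pattern that 2.28% of all probe sets showed.

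Among the contactins, which are anchored to the axon membrane without crossing it, the signals of *Cntn1* and *Cntn4* had different patterns. *Cntn1* gave 3183 and 2774 in WT at ZT4, 2708 and 1733 in WT at ZT16, 3304 and 2770 in S1/2-/- at ZT4, and 3118 and 3577 in S1/2-/- at ZT16. The lowest of the 8 was a single WT mouse at ZT16. At ZT16 the log2 difference between S1/2-/- and WT was 0.62 (standard error 0.19, adjusted p = 0.333 from limma), and without that mouse it was 0.30 (adjusted p = 0.702).

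*Cntn4* gave 297 and 174 in WT at ZT4 and 167 and 138 in WT at ZT16, against 102 and 139 in S1/2-/- at ZT4 and 117 and 105 in S1/2-/- at ZT16. The genotypes overlapped only by the lowest WT and the highest S1/2-/- signal, 137.8 and 138.6. The log2 difference over both times was -0.69 (standard error 0.27, adjusted p = 0.340 from limma), which did not pass. *Cntn4* lies on chromosome 6 with 7 protein-coding genes between it and *Bhlhe40*, 1 of the deleted genes, and *Chl1* and *Cntn3* lie beside it, with 9 and 10 genes between (gene order of GRCm38.p6). *Cntn3* was below the filter, with signals of 22.4 to 209.8.

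*Chl1*, close homolog of L1, is an adhesion protein of growing axons and the only member that the study lists for these arrays, so that its direction is not independent evidence. Its signals were 344 and 368 in WT at ZT4, and 263 and 76.7 in WT at ZT16. S1/2-/- cortex gave 239 and 312 at ZT4, and 306 and 282 at ZT16. Both WT mice at ZT16 were below both at ZT4, but one of the pair lay within the range of the S1/2-/- mice. The log2 change over time was -1.32 in WT (standard error 0.46, adjusted p = 0.625 from limma) and 0.10 in S1/2-/- (adjusted p = 0.981), and the difference between these, 1.43, did not pass (adjusted p = 0.875). Without WT ZT16 replicate 2 the WT change was -0.43, and without WT ZT16 replicate 1 it was -2.21. A second, dim probe set of *Chl1* (mean signal 25.2, below the filter) gave a WT change of 1.01, in the other direction. *L1cam*, *Ncam1* and *Nrcam* differed by 0.24, -0.073 and 0.029 between the genotypes over both times, and none passed. The value of *L1cam* was 0.041 without S1/2-/- ZT4 replicate 2 and 0.44 without replicate 1 of that group. *Pcdh7*, a protocadherin, showed the same single low array as *Chl1*, with 271 and 30.2 in WT at ZT16 against 164 to 305 on the other 6 arrays.

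Of the Eph receptors, *Epha7* had the lowest p of all members for time in WT. Its signals were 789 and 774 in WT at ZT4, 541 and 463 in WT at ZT16, 628 and 635 in S1/2-/- at ZT4, and 709 and 605 in S1/2-/- at ZT16. WT mice lay above all S1/2-/- mice at ZT4 and below them at ZT16. The log2 change from ZT4 to ZT16 was -0.64 in WT (standard error 0.16, adjusted p = 0.423 from limma) and 0.053 in S1/2-/- (adjusted p = 0.966), and neither passed. The WT change was -0.53 without WT ZT16 replicate 2, and the second probe set of *Epha7*, below the filter, gave -1.42. *Epha5*, a receptor of the same class, gave 749 and 643 in WT at ZT4 and 578 and 384 in WT at ZT16, a change of -0.56 (adjusted p = 0.625), but its second, dim probe set gave 0.51. *Epha4*, the Eph receptor with the lowest p between the genotypes over both times, differed by 0.21 (standard error 0.14, adjusted p = 0.560), but by -0.13 with the mean of its probe sets.

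Ephrins are the ligands of these receptors, and *Efna3* was the ephrin with the lowest p between the genotypes. WT cortex gave 1111 and 1345 at ZT4 and 1356 and 1324 at ZT16, and S1/2-/- cortex gave 1369 and 1594 at ZT4 and 1672 and 1549 at ZT16. As for *Cdh13*, no S1/2-/- mouse lay below a WT mouse, though the nearest values, 1356 and 1369, were close. The log2 difference over both times was 0.27 (standard error 0.10, adjusted p = 0.304 from limma), which did not pass and was below 1.5-fold. *Cdh13* and *Efna3* were the 2 of 45 members with no overlap in this direction (4.44%), against 3.43% of all probe sets.

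**Figure D2:**
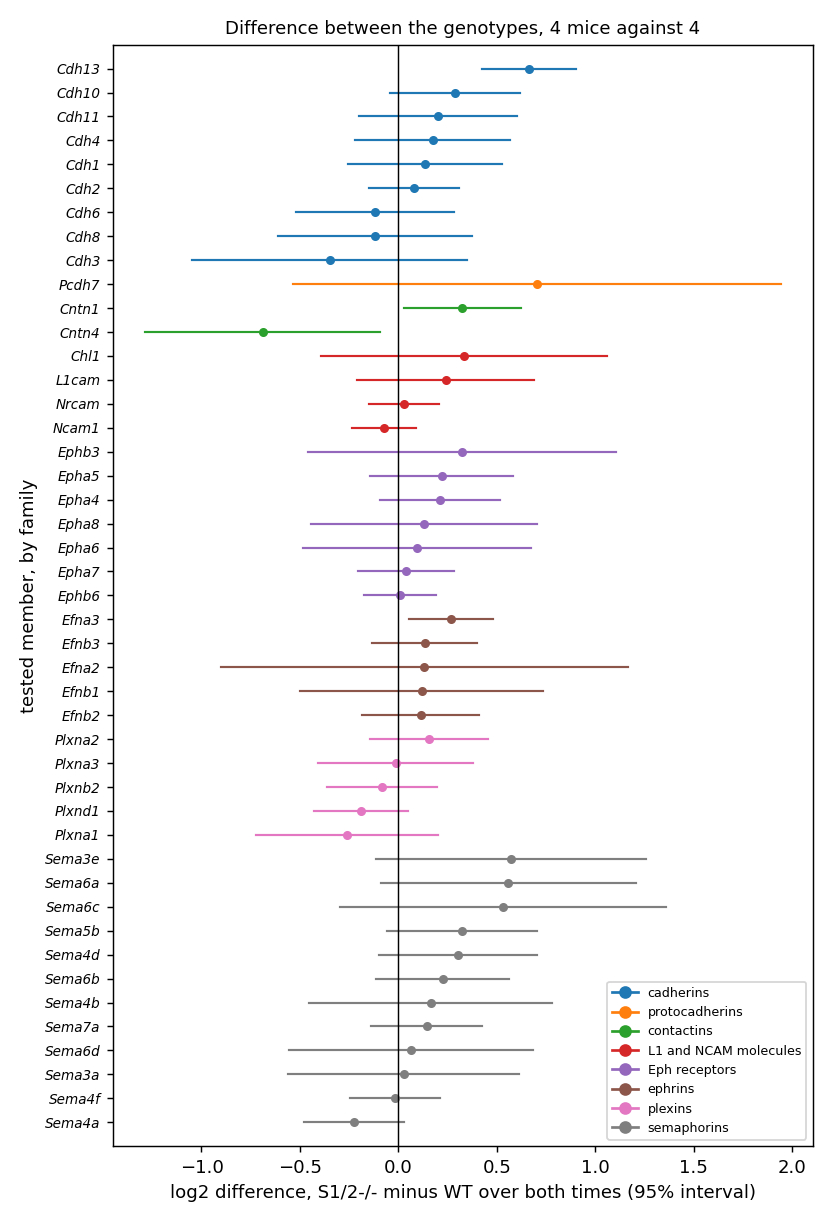
Log2 difference between S1/2-/- and WT over both times for each of the 45 tested members, coloured by family and ordered within each family, with points for the estimate and bars for the 95% interval from limma (4 mice against 4). *Cdh13* (0.66) is the only one called, and the intervals of *Cntn1*, *Cntn4* and *Efna3* also leave out 0 before adjustment.

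Semaphorins, the largest family here with 12 tested genes, held the largest change over time in WT. *Sema6a*, a membrane-bound semaphorin, gave 90.1 and 48.8 in WT at ZT4, 152 and 216 in WT at ZT16, 170 and 148 in S1/2-/- at ZT4, and 157 and 172 in S1/2-/- at ZT16. The 2 WT mice at ZT4 lay below the other 6 mice. The log2 change over time in WT was 1.45 (standard error 0.41, adjusted p = 0.539 from limma), and the difference between the genotypes at ZT4 was 1.26 (adjusted p = 0.475), neither of which passed. The mean of the WT mice at ZT4 was below the filter. The striatal marker sum was also lowest in the 2 WT mice at ZT4, and so was the oligodendrocyte sum, 16854 and 18621 against 22386 to 29580 on the other 6 arrays, and the part of both in this signal was not tested.

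*Sema5b*, which carries thrombospondin repeats, gave 199.8 and 310.0 in WT at ZT4, 295 and 339 in WT at ZT16, 278 and 282 in S1/2-/- at ZT4, and 451 and 429 in S1/2-/- at ZT16. The S1/2-/- mice at ZT16 lay above the other 6 mice. The log2 change over time was 0.65 in S1/2-/- (standard error 0.24, adjusted p = 0.609 from limma) and 0.50 averaged over the genotypes (adjusted p = 0.417). *Sema6c* at ZT4 rested on a single low array, with 58.3 and 216 in WT against 306 and 210.3 in S1/2-/-. *Sema4a* was lower in S1/2-/- by 0.23 over both times (log2 difference -0.23, adjusted p = 0.452), the lowest p among the semaphorins for that comparison, though its groups overlapped. The value was -0.13 without S1/2-/- ZT16 replicate 1, -0.15 without WT ZT16 replicate 2 and -0.050 with the mean of its probe sets, of which a second, dim one gave 0.13. *Sema7a*, a semaphorin with a lipid anchor, had a log2 change over time of -0.28 in WT and of -0.35 in S1/2-/- (adjusted p = 0.716 and 0.714), with overlap in S1/2-/-. The second of these was -0.13 without S1/2-/- ZT16 replicate 2 and -0.56 without replicate 1, and a second tested probe set gave 0.16.

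Plexins, the receptors of semaphorins, were the family with most members below WT in S1/2-/- cortex, 4 of 5, with a median log2 difference of -0.081. This median was the value of *Plxnb2*, whose second tested probe set gave 0.19. Without WT ZT16 replicate 1, 3 of 5 were lower (median -0.0072), and without replicate 2 of that group 4 of 5 were (median -0.15). *Plxna1* gave 231 and 200.2 in WT at ZT4, 242 and 177 in WT at ZT16, 122 and 158 in S1/2-/- at ZT4, and 230.2 and 217 in S1/2-/- at ZT16. It was low in S1/2-/- mice at ZT4, whose signals lay below all others. The log2 change over time in S1/2-/- was 0.69 (standard error 0.29, adjusted p = 0.653 from limma). *Plxnd1* was lower at ZT16 than at ZT4 by 0.27 averaged over both genotypes (log2 difference -0.27, adjusted p = 0.458). *Plxnb2* was higher at ZT16 in WT by 0.43 (adjusted p = 0.625), and a second tested probe set gave 0.10.

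Across the families, more members were higher than lower in S1/2-/- cortex. Over both times 34 of 45 had a positive difference (75.6%, against 50.4% of all probe sets), with a median of 0.13 against 0.0018 over all probe sets. This held for 7 of 7 Eph receptors, 5 of 5 ephrins, 10 of 12 semaphorins and 6 of 9 cadherins. Of the plexins 4 of 5 were lower, with the limits given above. The Eph receptor differences ran from 0.010 to 0.32. The second probe sets of *Epha4*, *Epha5* and *Epha7*, below the filter, gave -0.47, -0.31 and -0.33, and that of *Ephb6*, which was tested, gave 0.14. Most marker lists, among them those of oligodendrocytes, astrocytes and projection neurons, were shifted upwards in the same comparison, as given with *Cdh13*. Their part in these counts was not tested. Few of these differences were large beside their errors: 3 members had an unadjusted p under 0.05 in the positive direction (6.67%, against 6.44% of all probe sets) and 1 in the negative direction (2.22%, against 5.94%), and the single called member stands beside 0.255% of all probe sets called. After median centring, which moved the median of all probe sets to -0.066 and left 38.1% of them positive, 29 of 45 members and 5 of 7 Eph receptors were positive.

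**Figure D3:**
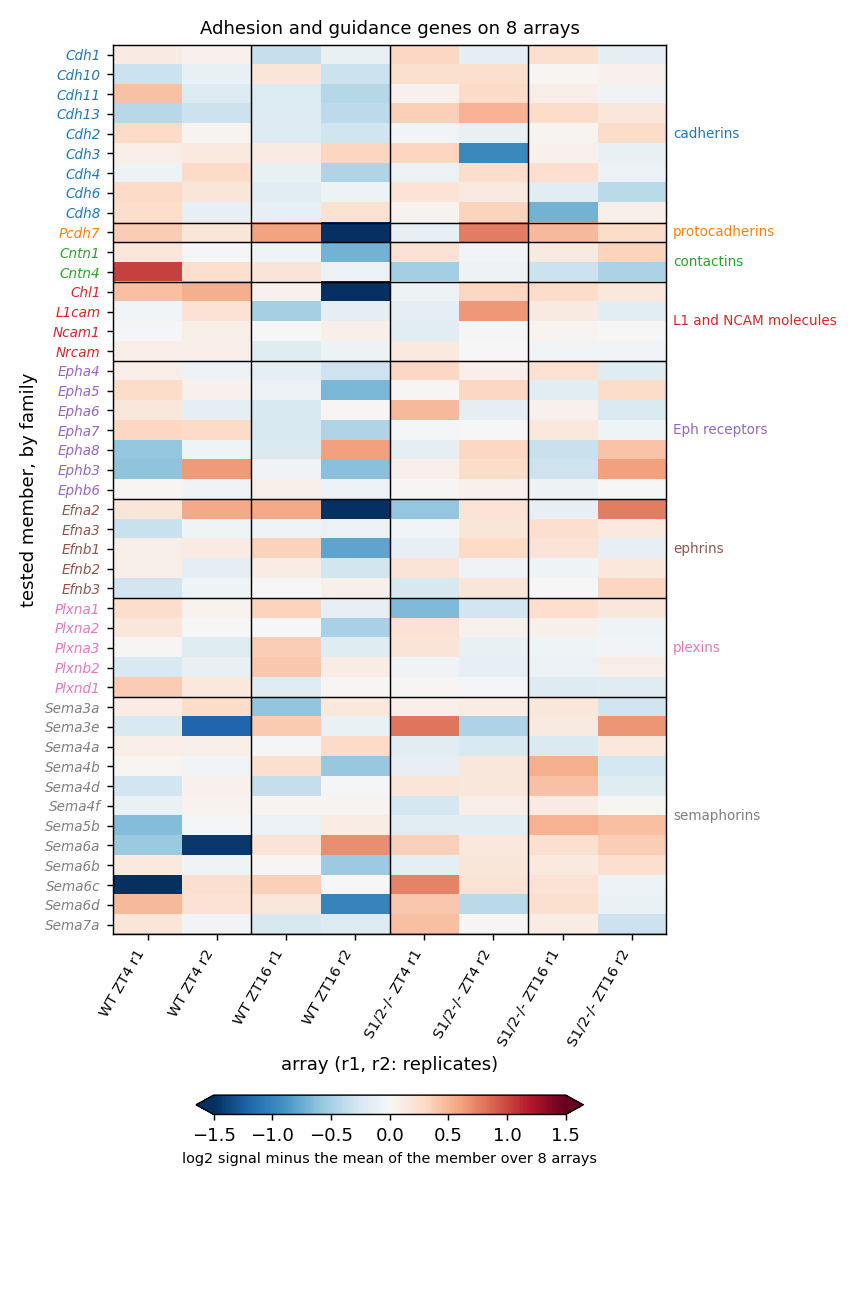
Log2 signal of each of the 45 tested members (rows, by family) on each of the 8 arrays (columns), as the difference from the mean of that member over the arrays, with the colour scale ending at 1.5 in either direction. Blue cells gather in the column of WT ZT16 replicate 2, among them *Chl1*, *Pcdh7* and *Efna2*.

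In WT cortex 29 of 45 members had a lower signal at ZT16 (64.4%, against 50.6% of all probe sets), and the median log2 change was -0.23 against -0.0027. No member was called (0.0134% of all probe sets were), also not with the ANOVA of the methods. At an unadjusted p under 0.05, 6 members were lower (13.3%, against 3.68%), namely *Cdh2*, *Cntn1*, *Epha5*, *Epha7*, *Chl1* and *Plxnd1*, and 2 were higher (4.44%, against 3.93%), *Plxnb2* and *Sema6a*. In S1/2-/- cortex 25 of 45 were lower (55.6%, against 50.5%), with a median of -0.024. There 2 members were higher at an unadjusted p under 0.05, *Plxna1* and *Sema5b* (4.44%, against 4.33%), none was lower (2.98% of all probe sets were), and none was called by limma (0% of all probe sets) or by the ANOVA.

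Much of the pattern in WT lay in a single array. WT ZT16 replicate 2 held the lowest of the 8 signals for 19 of the 45 members (42.2%), against 19.5% of all probe sets, while the other 7 arrays held the lowest signal of 2 to 8 members each. Over all probe sets this array also held the most highest signals (18.4%), but only 3 of the members were highest on it (6.67%). It thus deviated in both directions over all probe sets. The 19 members lowest on it included *Cdh2*, *Cntn1*, *Chl1*, *Pcdh7*, *Epha4*, *Epha5*, *Epha7*, *Efnb1*, *Efnb2*, *Plxna2* and *Sema6d*. The same array had the lowest sum of projection neuron markers, 7904 against 9143 to 11794 on the others, and the highest sum of striatal markers, 14295. *Tbr1* gave 5667 of the first sum and *Penk* 12383 of the second. *Tbr1*, *Camk2a* (210.3) and *Neurod6* (312.6, with 315.0 the next lowest) were lowest on this array, while *Fezf2*, *Cux2* and *Neurod2* were not. *Penk* and *Tac1* (1308) were highest on it, while *Drd2* and *Rgs9* were not. The part of these in the pattern was not tested. This count was made after the values were seen. Without this array 25 of 45 members had a negative change in WT (median -0.074), and 5 of 5 ephrins had a positive one in place of 2 of 5. Without the other WT mouse at ZT16, replicate 1, the log2 changes in WT were -0.78 for *Cntn1*, -2.21 for *Chl1* and -2.85 for *Pcdh7*. Their values at ZT16 then came from replicate 2 alone.

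**Figure D4:**
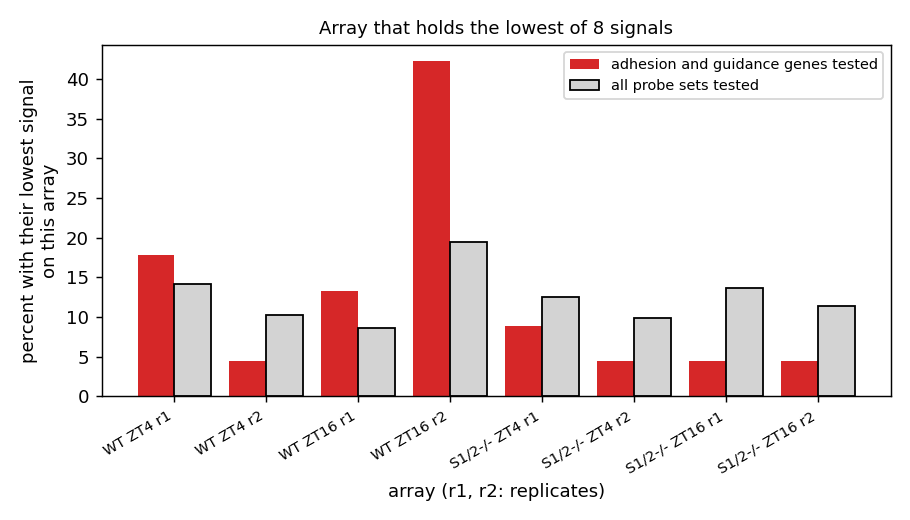
Percent of features whose lowest of 8 signals lies on a given array, for the 45 tested members (red) and for all 7453 tested probe sets (grey), with 1 pair of bars per array. WT ZT16 replicate 2 holds 42.2% of the members against 19.5% of all probe sets.

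The genotypes were also compared at each time by itself. At ZT16 32 of 45 members were higher in S1/2-/- (71.1%, against 50.8%), with a median of 0.25. At ZT4 25 of 45 were higher, a share nearer that of all probe sets (55.6%, against 49.3%). The median at ZT4 was 0.041, and it ranged from -0.017 to 0.061 with 1 array left out. No member was called at either time (0.0134% of all probe sets were at ZT16 and 0.0939% at ZT4), also not with the ANOVA. At ZT16 5 members were higher at an unadjusted p under 0.05 (11.1%, against 5.73%), namely *Cdh13*, *Cdh2*, *Cntn1*, *Epha7* and *Chl1*, and none was lower (5.21% of all probe sets were). At ZT4 *Cdh13*, *Sema6a* and *Sema6c* were higher (6.67%, against 4.04%) and *Cntn4* was lower (2.22%, against 3.25%). Of these, *Sema6a* had a mean log2 signal of 6.78 in WT, just below the filter of 6.79, and of 7.33 in S1/2-/-. The WT mice alone would thus not have passed the filter, but only those at ZT4 were below it as a group. These comparisons share no mice, but each shares its mice with the comparisons over time. Without WT ZT16 replicate 2, 27 of 45 were higher at ZT16, with a median of 0.12, and 26 of 45 over both times (median 0.055, against 0.21 without WT ZT16 replicate 1), with 3 of 5 ephrins and 5 of 7 Eph receptors.

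Complete separation of the groups, with every mouse of one above every mouse of the other, was also counted. Between the times in WT, 15 members separated with ZT16 lower (33.3%, against 18% of all probe sets) and 4 with ZT16 higher (8.89%, against 17.9%). In S1/2-/- cortex 6 separated with ZT16 lower (13.3%, against 20.4%) and 4 with ZT16 higher (8.89%, against 21%), both shares below those of all probe sets. Between the genotypes at ZT4, 5 members were higher in S1/2-/- without overlap (11.1%, against 19.5%) and 8 lower (17.8%, against 19.9%), and at ZT16 the counts were 11 (24.4%, against 21%) and 4 (8.89%, against 21%). No member lay lower in all 4 S1/2-/- mice than in all 4 WT mice (3.74% of all probe sets did).

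Over both genotypes 31 of 45 members had a lower signal at ZT16 (68.9%, against 50.7%), with a median log2 change of -0.16. With 1 array left out, this median ranged from -0.14 to 0.0045, so that it rested in part on single mice. No member was called for time over both genotypes (0% of all probe sets), and *Epha7*, *Plxnd1* and *Sema7a* were lower at an unadjusted p under 0.05 (6.67%, against 4.04%), while *Sema5b* and *Sema6a* were higher (4.44%, against 5.34%). No member had all 4 mice at ZT16 above all 4 at ZT4 (2.78% of all probe sets did).

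Whether the change over the day itself differed between the genotypes was tested as an interaction. No member passed, by limma (0% of all probe sets) or by the ANOVA, and 30 of 45 had a positive difference of the changes (66.7%, against 51.3%). At an unadjusted p under 0.05 there were 4. *Epha7* (0.70), *Cdh2* (0.64) and *Cntn1* (0.60) had a more positive change in S1/2-/- than in WT (6.67% of members, against 2.74% of all probe sets), and *Sema6a* (-1.40) a more negative one (2.22%, against 2.95%). The WT mice alone would have left *Sema6a* just below the filter, through its low signals at ZT4.

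The 14 members below the filter were *Cdh9*, *Cdh15*, *Cdh16*, *Cntn3*, *Epha2*, *Epha3*, *Efna1*, *Efna4*, *Efna5*, *Pcdh12*, *Sema3b*, *Sema3c*, *Sema3f* and *Sema5a*. Their signals ran from 10.3 to 209.8, with medians over the arrays of 18.0 to 97.7, and no difference is given for them. No detection calls were used, so that absence cannot be read from these values. Of the 45 tested members, 5 had a group mean below the filter, *Cdh3*, *Ephb3*, *Efna2*, *Pcdh7* and *Sema6a*.

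The genes that work with the members were taken from a list of 78, of which 41 were on the array and 37 were tested. None was called in any of the 7 comparisons. Over both times 29 of 37 had a higher signal in S1/2-/- cortex (78.4%, against 50.4% of all probe sets), with a median of 0.096, and 6 of them had an unadjusted p under 0.05 (16.2%, against 6.44%): the adhesion molecule *Cadm1*, the receptor phosphatase *Ptprs*, the latrophilin *Adgrl1*, the kinase *Fyn*, the contactin partner *Cntnap1* and *Dpysl3*, a mediator of semaphorin signals. None was lower at that level (5.94% of all probe sets were). *Dpysl3* signals were 38.6 to 139 in the 4 WT mice and 172 to 274 in the 4 S1/2-/- mice, without overlap, as for 3.43% of all probe sets (log2 difference 1.36, standard error 0.30, adjusted p = 0.128 from limma). The mean log2 signal of *Dpysl3* was 6.32 in WT, below the filter of 6.79, and 7.69 in S1/2-/-, so that it was tested only because of its level in S1/2-/- mice. *Nrp1*, the only neuropilin tested, gave 290.1 to 543 in WT and 455 to 509 in S1/2-/- (log2 difference 0.31, adjusted p = 0.470). All 6 catenins and linked proteins were tested, 4 of them higher in S1/2-/-, with a median of 0.016. For time in WT, 21 of the 37 partner genes were higher at ZT16 (56.8%, against 49.4%), unlike the members. There 4 were higher at an unadjusted p under 0.05 (10.8%, against 3.93%) and none was lower (3.68% of all probe sets were). Between the genotypes at ZT16, 3 were higher at that level (8.11%, against 5.73%). Only *Ngef* was lower (2.7%, against 5.21%), with a log2 difference of -0.49 (adjusted p = 0.318 from limma).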

How the data were processed

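Cortical RNA of 8 individual mice, 2 per genotype and time, was hybridised to 1 Affymetrix array each. The values deposited by the authors are intensity values, namely MAS5 signals on a linear scale. In each column their mean was 500 once the lowest and highest 2% were left out, which shows that scaling took place before deposit. The submitters' processing notes name MAS5 without a version. Columns were matched to mice by sample title. The number of arrays limits the precision.

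Apart from 66 controls there were 12422 probe sets, of which 10833 had 1 gene symbol in the array annotation, 396 several and 1193 none. Signals under 1 were raised to 1 (64 values, none of a member) before log2. The 7453 probe sets whose mean log2 signal reached 6.79, the 40th percentile (a signal of 111), were tested. The 59 members had 78 probe sets, and for the 16 members with several the brightest was used. A limma 3.58.1 model in R 4.3.3 held the 4 group means and an intensity trend (4 residual and 6.02 prior degrees of freedom) and gave all 7 comparisons, with Benjamini-Hochberg adjustment over the 7453 probe sets. Calls needed both an adjusted p under 0.05 and a fold over 1.5. The scripts were tested on simulated data.

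Members, gene lists and tests were chosen with earlier results of these data known. By rule, values are given for *Chl1*, for called members, for the 4 members with the lowest p in each comparison and for the lowest p of each family between the genotypes over both times. Other genes named, and the promoters shown, were added after values were seen or to spell out a count. As alternatives the filter was dropped or set at the 60th percentile, arrays were quantile normalized or median centred, log2(signal + 16) was used, the intensity trend was dropped, the ANOVA of the methods or unadjusted p replaced the test, all probe sets of a gene were averaged, the replicate number was a block, and each array was left out in turn. Promoter sequences are from RefSeq (GRCm38.p6), where *Cdh13* was not matched.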

Additional observations from a re-analysis of the deposited data

Results flagged for a closer look

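For 4 members the change from ZT4 to ZT16 differed between S1/2-/- and WT at an unadjusted p under 0.05. None passed after adjustment, and the unadjusted level was taken after this was known. The log2 difference of the changes was 0.70 for *Epha7* (adjusted p = 0.738 from limma), 0.64 for *Cdh2* (adjusted p = 0.738), -1.40 for *Sema6a* (adjusted p = 0.850) and 0.60 for *Cntn1* (adjusted p = 0.873). Without WT ZT16 replicate 2 the values were 0.58 for *Epha7*, 0.59 for *Cdh2*, -1.14 for *Sema6a* and 0.28 for *Cntn1*. As given above, the mean of *Sema6a* in the WT mice alone was just below the filter. Groups of 2 mice are too small for a test of single outlying arrays.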

How the results depend on the processing

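Of 673 values that the alternatives gave for 39 named results, 636 kept their direction and their side of the threshold, 12 lost the call (all of *Cdh13* over both times), 21 gained one and 4 reversed. Of the values that gained a call, 17 came from alternatives other than leaving out an array, all of them the unadjusted p. With an unadjusted p under 0.05 and a fold over 1.5, the members called were 3 for time in WT (6.67%, against 3.45% of all probe sets), 2 for time in S1/2-/- (4.44%, against 2.82%), 4 for the interaction (8.89%, against 4%), 4 for the genotypes at ZT4 (8.89%, against 3.33%), 2 at ZT16 (4.44%, against 4.28%), 2 over both times (4.44%, against 2.51%) and 1 for time over both genotypes (2.22%, against 2.04%). Over both times, 0 members in place of 1 were called with no filter, median centring, no intensity trend or the ANOVA of the methods. With the replicate number as a block the count was also 0 (*Cdh13* adjusted p = 0.0700 from limma), and it changed no other count. The numbers do not pair the mice, since same-numbered replicates correlated at -0.0014 to 0.098 in their deviations. Leaving out 1 array at a time gave 0 to 3 calls for time in WT, 0 to 3 for the genotypes at ZT16 and 0 to 2 over both times, the highest counts without WT ZT16 replicate 1 (1.34%, 2.07% and 1.18% of all probe sets were called in that fit, against 6.67%, 6.67% and 4.44% of the members), where the lone mouse left is assumed to vary like the other groups. Of the 39 results, 18 moved by over 1.5 times or turned when some array was left out, none of them *Cdh13*. Results that had not passed reversed as follows. *Chl1* for time in S1/2-/- ranged from -0.089 (without S1/2-/- ZT4 replicate 1) to 0.30 with 1 array left out. Over both times *Pcdh7* ranged from -0.089 to 1.49 and *Chl1* from -0.11 to 0.78, each lowest without WT ZT16 replicate 2, and *Epha4* was -0.13 with the mean of its probe sets. The cause was not tested. Groups of 2 mice and dim probe sets limit what could be called.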
